A study of Mus musculus with 3 samples.

Results

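Runx1, Gata2, Tal1, Lmo2, Lyl1, Fli1, Erg, Meis1, Spi1 and Myb are 10 transcription factor genes that haematopoietic stem and progenitor cells depend on. They were chosen by symbol as a fixed list, and all 10 were found among the 24982 gene symbols of the deposited files. RNA was sequenced from sorted mouse LKS cells. These bone marrow cells lack lineage markers, carry Kit and Sca1, and include haematopoietic stem cells and early progenitors. The KO group is 1 library with the CD73-/- recipient genotype, and the WT group is 2 libraries with the wild-type recipient genotype. Whether the WT pair came from separate animals is not stated. CD73 is the cell-surface enzyme that makes adenosine from AMP. The labels call the animals recipients, use the unexplained term LLP for the cells, give no strain, age or further treatment, and do not say whether the sorted cells came from a donor, so the genotype named is that of the recipient.

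Tal1 and Lyl1 are related basic helix-loop-helix proteins that bind E-box DNA with an E protein partner. Lmo2 is the LIM-domain bridge that joins them to a GATA factor such as Gata2, in a complex that holds Ldb1. Runx1, which binds DNA with Cbfb, and the ETS proteins Fli1 and Erg are known to occupy many of the same regulatory elements in blood progenitors, including elements of each other's genes. Meis1 is a homeodomain protein that works with Pbx and Hox proteins, Spi1 (PU.1) is the ETS factor of myeloid and lymphoid development that is known to antagonise GATA factors, and Myb supports progenitor proliferation. In bulk RNA, fewer cells expressing a gene and less RNA per cell cannot be told apart.

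The libraries were shallow, with 264704 gene-level counts in KO, 361638 in WT replicate 1 and 324954 in WT replicate 2. A gene with 0 counts could still be present at up to 11.3, 8.30 and 9.23 CPM (the count scaled to a common gene-level library total) in those libraries, which is what 3 counts amount to. Nt5e, the gene of CD73, had 0 counts in every library, so it could not check the labels. Of the gate genes, Kit had 147 counts in KO, against 187 and 207 in WT, and Ly6a, which encodes Sca1, had 36, against 60 and 19. Of 9 surface genes that define the gate or stem and progenitor subsets 8 were tested, and 0 passed in edgeR, with 0 higher and 1 lower at an unadjusted p under 0.05. That gene was Cd48, a progenitor marker, with 1 count in KO, against 24 and 46 in WT. The progenitor markers Cd34 and Flt3 had 110 and 56 counts in KO, against 230 and 104 in WT replicate 1 and 194 and 151 in WT replicate 2. Markers of mature cells were also counted. The summed level of 9 mature neutrophil markers was 378 CPM in KO, against 827 and 1148 CPM in WT, while that of 9 markers listed for dendritic cells was 2803 CPM in KO, against 149 and 588 CPM in WT. Most of the dendritic sum in KO came from Cd74 and 3 class II genes (H2-Eb1, H2-Ab1, H2-Aa). Of the other detected markers on that list, Clec9a had 27 counts in KO, against 0 and 0 in WT. Itgax, a dendritic cell integrin, had 0 counts in KO, against 4 and 0 in WT. The labels do not say that the WT pair came from different animals, so the tests measure only the spread between these libraries, which may be technical.

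Taken as a sum, the 10 factors had nearly the same share of each library. They held 778 counts in KO, against 1033 and 930 in WT replicates 1 and 2, or 2939 CPM in KO, against 2856 and 2862 CPM in WT. Lmo2, Myb and Lyl1 held most of that sum in every library, so it says little of the other genes. The split of the sum differed. Runx1, Gata2 and Meis1 were lower in KO than in both WT libraries. Spi1, Erg and Myb were higher in KO than in both. Tal1, Lmo2, Lyl1 and Fli1 lay between the WT libraries, except that Lmo2 lay above both with TMM or DESeq2 scaling. Over all 7984 tested genes, 38.2% were lower in KO than in both WT libraries and 31.1% were higher than in both, so 3 of 10 each way is close to that background. Restricted to the 2831 tested genes that reach 50 counts in a library, these shares were 39.5% and 29.1%.

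None of the 10 passed the test of KO against WT (edgeR quasi-likelihood test over 7984 genes, Benjamini-Hochberg adjusted p from 0.71 to 0.99), and 0 of 10 reached an unadjusted p under 0.05. DESeq2, an alternative count test, gave an adjusted p to 9 of the 10 and called none of them, again with 0 of 10 under an unadjusted p of 0.05. The share of all tested genes called by edgeR was 0.1% on the higher side and 0% on the lower side (8 and 0 genes, or 11 and 2 with DESeq2). At an unadjusted p under 0.05 these shares were 3.53% and 6.51%. With 1 KO library the fit takes its spread from the WT pair and from other genes of like abundance, and an exact permutation test of 1 library against 2 cannot give a p below 0.33.

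**Figure D1:**
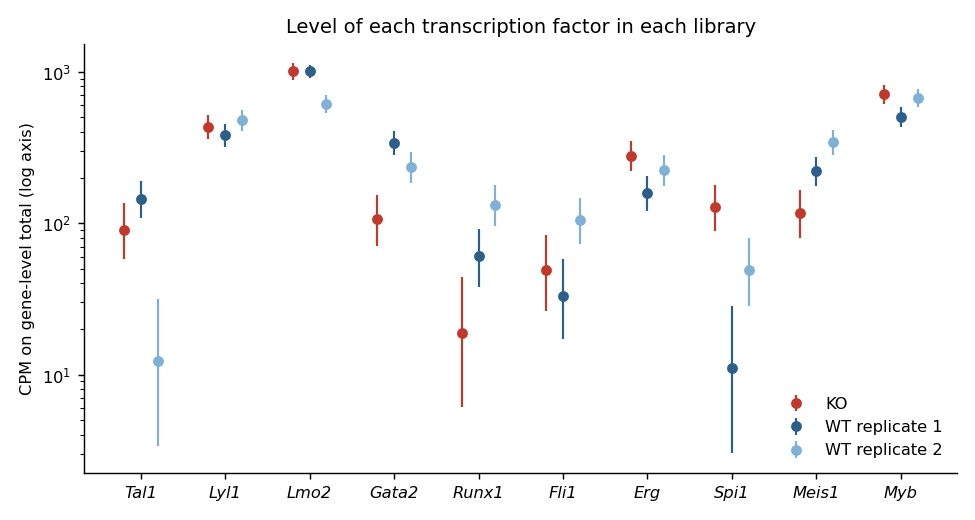
CPM on the gene-level total (log axis) for the 10 transcription factors in KO, WT replicate 1 and WT replicate 2. Points are single libraries and bars are exact 95% Poisson intervals, which cover counting error only. Spi1 is highest in KO, and Runx1, Gata2 and Meis1 are lowest there.

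Gata2, a zinc finger factor that stem cells need for their maintenance, lies on chromosome 6 (88193891 to 88207032, mm10) and is protein-coding, as are the other 9. It had 28 counts in KO, against 122 in WT replicate 1 and 76 in WT replicate 2. On the CPM scale this is 106 in KO, against 337 and 234 in WT, or 286 ± 73.2 CPM (SD, n = 2). The KO library lay below both WT libraries, at -2.46 WT standard deviations from their mean. The ratio of KO was 0.314 to WT replicate 1 (95% interval 0.200 to 0.476) and 0.452 to WT replicate 2 (0.282 to 0.706). These intervals are exact binomial ones that compare the reads of 2 libraries and not the conditions. The fitted log2 fold change was -1.39 (SE 0.98, 95% interval -3.31 to 0.52, adjusted p 0.71 in edgeR).

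Runx1, the DNA-binding partner of Cbfb and a factor required for the emergence of definitive blood cells, lies on chromosome 16 (92601466 to 92826074). It had 5 counts in KO, against 22 in WT replicate 1 and 43 in WT replicate 2. Its level of 18.9 CPM in KO, against 96.6 ± 50.6 CPM in WT (SD, n = 2), rested on so few reads that its Poisson interval ran over 6.13 to 44.1 CPM. KO was again lowest, but the WT libraries also stood 2.18-fold apart from each other (WT replicate 2 over WT replicate 1, 95% interval 1.27 to 3.82). In log2 the fitted fold change was -2.29 (SE 1.76, adjusted p 0.75 in edgeR).

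Meis1, a homeodomain partner of Pbx and Hox proteins, lies on chromosome 11 (18880428 to 19019651). It had 31 counts in KO, against 80 in WT replicate 1 and 111 in WT replicate 2, which is 117 CPM in KO and 281 ± 85.1 CPM in WT (SD, n = 2). KO lay below both WT libraries, with ratios of 0.529 (95% interval 0.338 to 0.811) and 0.343 (0.222 to 0.515). The fitted log2 fold change was -1.22 (SE 0.97, adjusted p 0.77 in edgeR).

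The windows around the start sites of these 3 genes are shown because the 3 were lower in KO than in each WT library by more than counting error. They are RefSeq windows of 300 bases on build GRCm38.p6 (mm10), from 250 before to 50 after an annotated start, given 5′ to 3′ on the gene's strand. Capitals mark the letters AGGAA or CGGAA, the core that ETS proteins bind, and TGTGGT or TGCGGT, the core that Runx proteins bind, on either strand.
Runx1 distal start, chr16:92826025-92826324, minus strand: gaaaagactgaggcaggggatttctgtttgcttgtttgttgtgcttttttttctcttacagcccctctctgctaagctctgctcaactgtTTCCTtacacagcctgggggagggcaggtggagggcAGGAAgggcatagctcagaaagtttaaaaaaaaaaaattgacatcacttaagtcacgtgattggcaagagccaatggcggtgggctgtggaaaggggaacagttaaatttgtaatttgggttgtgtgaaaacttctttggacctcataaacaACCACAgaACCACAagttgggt
Runx1 proximal start, chr16:92697280-92697579, minus strand: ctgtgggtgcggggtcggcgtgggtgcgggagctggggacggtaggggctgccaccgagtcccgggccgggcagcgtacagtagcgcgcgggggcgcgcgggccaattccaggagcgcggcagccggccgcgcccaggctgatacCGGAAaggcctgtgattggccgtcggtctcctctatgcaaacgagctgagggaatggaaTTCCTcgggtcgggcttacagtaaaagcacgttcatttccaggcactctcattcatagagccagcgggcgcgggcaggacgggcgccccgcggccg
Gata2 distal start, chr6:88193641-88193940, plus strand: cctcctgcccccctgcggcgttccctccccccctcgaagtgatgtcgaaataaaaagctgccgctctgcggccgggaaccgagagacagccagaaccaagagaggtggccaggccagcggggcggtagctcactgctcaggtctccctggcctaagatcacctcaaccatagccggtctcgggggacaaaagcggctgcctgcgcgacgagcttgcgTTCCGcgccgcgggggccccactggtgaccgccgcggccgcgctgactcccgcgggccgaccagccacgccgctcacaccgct
Gata2 second RefSeq window, chr6:88198414-88198713, plus strand: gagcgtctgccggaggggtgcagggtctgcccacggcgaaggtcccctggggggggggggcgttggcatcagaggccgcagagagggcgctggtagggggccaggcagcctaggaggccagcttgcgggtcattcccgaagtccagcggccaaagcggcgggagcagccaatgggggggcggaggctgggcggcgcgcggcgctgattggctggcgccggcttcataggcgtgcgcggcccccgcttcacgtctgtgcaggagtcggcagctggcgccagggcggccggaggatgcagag
Meis1 start, chr11:19018920-19019219, minus strand: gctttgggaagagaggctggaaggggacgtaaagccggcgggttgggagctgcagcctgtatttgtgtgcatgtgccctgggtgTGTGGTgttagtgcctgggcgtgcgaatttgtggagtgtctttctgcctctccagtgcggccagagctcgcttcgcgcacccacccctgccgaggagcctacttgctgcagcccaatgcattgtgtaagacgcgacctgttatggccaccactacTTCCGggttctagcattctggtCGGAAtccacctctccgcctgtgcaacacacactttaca

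Of these 5 windows, the distal Runx1 window held 2 Runx cores and 2 ETS cores, and the Meis1 window held 1 Runx core and 2 ETS cores. The proximal Runx1 window held 2 ETS cores and the distal Gata2 window 1, while the second Gata2 window held neither motif. That window lies downstream of the GENCODE start of the proximal Gata2 transcript, at 88198334 on chromosome 6. In all, 12 windows matched 7 of the 10 genes, and Lmo2, Fli1 and Spi1 had no entry. The ETS letters were found in 10 of these 12 windows, against 78.0% of all 32851 windows, and the Runx letters in 2 of 12, against 22.4%. GATAA, the GATA core, was found in 2 of 12, against 25.4%, and CANNTG, the E-box, in 7 of 12, against 72.3%. TGACAG, a core bound by Meis proteins, was found in 1 of 12, against 19.2%, and the Myb cores AACTG or AACGG in 4 of 12, against 55.1%. All were searched on both strands, and each motif was counted on its own where it overlapped another. A match is a description of the letters and says nothing of binding.

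Both Runx1 and Gata2 are annotated with a distal and a proximal start, and the deposited files count each transcript apart. Transcripts of a gene repeat the reads of the exons they share. The 2 Runx1 transcripts from the distal start had 5 and 5 counts in KO, against 22 and 22 in WT replicate 1 and 39 and 35 in WT replicate 2. The 2 from the proximal starts had 5 and 5 in KO, against 15 and 15 in WT replicate 1 and 43 and 39 in WT replicate 2. WT replicate 1 had more on the distal transcripts and WT replicate 2 slightly more on the proximal ones. In KO all 4 transcripts had the same 5 counts, which do not tell the starts apart. For Gata2, the distal and proximal transcripts had 28 counts each in KO, against 117 and 122 in WT replicate 1 and 76 each in WT replicate 2. All but a few Gata2 reads were therefore counted for both of its transcripts, and they say little on which start was used.

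Spi1 was the only 1 of the 10 genes that was higher in KO than in each WT library by more than counting error. It encodes PU.1 and lies on chromosome 2 (91082374 to 91115759). It had 34 counts in KO, against 4 in WT replicate 1 and 16 in WT replicate 2, which is 128 CPM in KO and 30.1 ± 27.0 CPM in WT (SD, n = 2). KO lay 3.64 WT standard deviations above the WT mean. The ratio of KO was 11.6 to WT replicate 1 (95% interval 4.14 to 45.0) and 2.61 to WT replicate 2 (1.40 to 5.06). The WT libraries themselves stood 4.45-fold apart (WT replicate 2 over WT replicate 1, 1.44 to 18.3). For Spi1 the fitted log2 fold change was 2.13 (SE 1.54, 95% interval -0.90 to 5.15, adjusted p 0.74 in edgeR).

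Spi1 is also strongly expressed by mature myeloid and dendritic cells, and their markers moved between the libraries. The class II genes H2-Ab1 and H2-Eb1 had 201 and 156 counts in KO, against 24 and 19 in WT replicate 1 and 11 and 21 in WT replicate 2, and Cd74 had 252, against 7 and 150. Csf1r, the macrophage growth factor receptor, had 14 counts in KO, against 0 and 4, whereas Lyz2, a lysozyme of monocytes and neutrophils, had 20, against 32 and 112. Of the dendritic cell list, 6 of 9 markers were detected, with Siglech, Batf3 and Zbtb46 at 0 in every library. Clec9a, of the same list, had 27 counts in KO, against 0 and 0 in WT. Of 8 monocyte markers 6 were detected, with Cd14 and Fcgr1 at 0 in every library, and they summed to 453 CPM in KO, against 171 and 637 CPM in WT. Among them Ccr2 had 39 counts in KO, against 0 and 6 in WT, and Ly6c2 had 47, against 30 and 70. Adgre1 and Cd68 had 0 in KO, against 0 and 4 for Adgre1 and 0 and 11 for Cd68. The part of such cells in the Spi1 level was not tested.

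**Figure D2:**
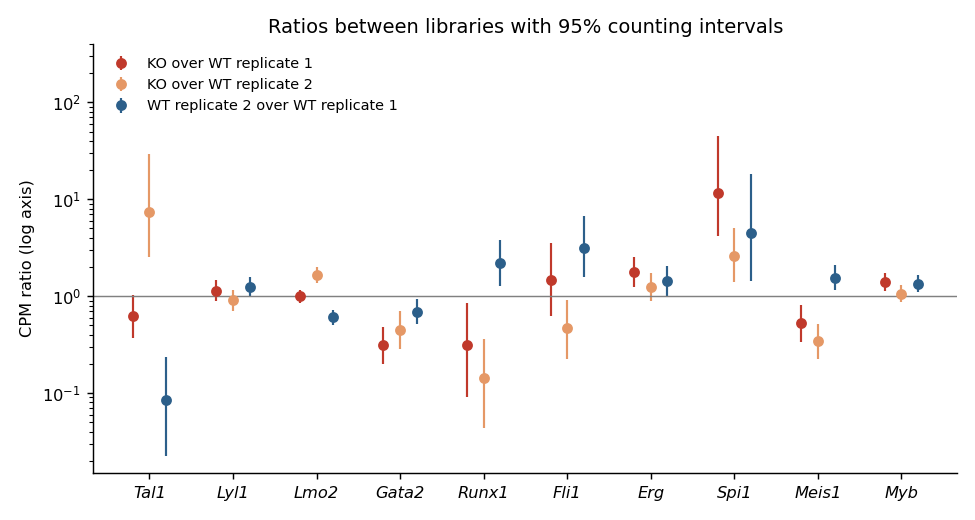
Ratio of CPM between libraries (log axis) for each gene, as KO over WT replicate 1, KO over WT replicate 2, and WT replicate 2 over WT replicate 1. Bars are exact 95% binomial intervals for counting error, and the WT libraries differ from each other for 8 of the 10 genes.

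Erg, an ETS factor needed for stem cell self-renewal, lies on chromosome 16 (95359169 to 95586600). It had 74 counts in KO, against 57 in WT replicate 1 and 73 in WT replicate 2, or 280 CPM in KO and 191 ± 47.4 CPM in WT (SD, n = 2). KO was the highest library, yet its ratio to WT replicate 2 was 1.24, with an interval of 0.888 to 1.74 that includes no difference. Fli1, its close relative, lies on chromosome 9 (32422204 to 32543432). It had 13 counts in KO, against 12 in WT replicate 1 and 34 in WT replicate 2, so KO lay between the WT libraries. The fitted log2 fold changes were 0.59 for Erg (SE 0.90, adjusted p 0.89) and -0.44 for Fli1 (SE 1.65, adjusted p 0.96), both from edgeR.

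Myb, the factor of progenitor proliferation, lies on chromosome 10 (21124930 to 21160984). It had 188 counts in KO, against 182 in WT replicate 1 and 219 in WT replicate 2, or 710 CPM in KO and 589 ± 121 CPM in WT (SD, n = 2). KO stood barely above WT replicate 2, with a ratio of 1.05 (95% interval 0.863 to 1.29). The fitted log2 fold change of 0.31 had an SE of 0.55 (adjusted p 0.91 in edgeR), with a 95% interval of -0.76 to 1.39.

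Lmo2, the bridging protein of the Tal1 complex, had the highest level per length of the 10 in every library. It lies on chromosome 2 (103957903 to 103981878) and had 266 counts in KO, against 364 in WT replicate 1 and 199 in WT replicate 2. KO and WT replicate 1 lay at the same level, 1005 and 1007 CPM, with a ratio of 0.998 (95% interval 0.849 to 1.17). WT replicate 2 was lower, at 612 CPM. Its fitted log2 fold change was 0.35 (SE 0.47, 95% interval -0.56 to 1.26, adjusted p 0.86 in edgeR).

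Lyl1 had the closest agreement between libraries. It lies on chromosome 8 (84701423 to 84704716) and had 115 counts in KO, against 138 in WT replicate 1 and 155 in WT replicate 2. Its level was 434 CPM in KO and 429 ± 67.5 CPM in WT (SD, n = 2). All 3 ratios between libraries had an interval that includes 1, which held for no other of the 10 genes, and the fitted log2 fold change was 0.06 (SE 0.67, 95% interval -1.25 to 1.37, adjusted p 0.99 in edgeR). Nfix, on the opposite strand, overlaps Lyl1 exons and had 37 counts in KO, against 20 and 87 in WT. Without stated strand use, reads of such a pair cannot be told apart. Runx1, Meis1 and Myb exons also overlap annotated antisense genes, which were not analysed here.

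Tal1, the partner of Lyl1 in kind, differed most between the WT libraries. It lies on chromosome 4 (115056426 to 115071755) and had 24 counts in KO, against 52 in WT replicate 1 and 4 in WT replicate 2. KO, at 90.7 CPM, lay between the WT libraries, at 144 and 12.3 CPM. The ratio of WT replicate 2 to WT replicate 1 was 0.0856 (95% interval 0.0225 to 0.233), farther from 1 than either ratio of KO to a WT library. In edgeR the estimate was a log2 fold change of 0.24 with an SE of 1.41 (adjusted p 0.98). As a plain difference of log2 CPM it was 2.89 without WT replicate 1 and -0.63 without WT replicate 2, values that have no test.

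Beyond counting error, the WT libraries differed from each other for at least as many of the 10 genes as KO differed from either. Such counts depend on depth and do not measure the width of a spread. For Runx1, Gata2 and Meis1 both ratios of KO lay farther from 1 than the ratio between the WT libraries. For Tal1, Fli1 and Lyl1 the ratio between the WT libraries lay farthest from 1, and the other genes were mixed or level. The ratio of WT replicate 2 to WT replicate 1 had an interval that excludes 1 for 8 of the 10 genes, against 59.1% of all tested genes (67.4% of those reaching 50 counts). For KO over WT replicate 1 it was 6 of 10, against 59.5% of tested genes (66.2%), and for KO over WT replicate 2 it was 7 of 10, against 61.8% (69.3%). KO was lower than each WT library, with both intervals excluding 1, for 3 of the 10 genes, against 17.6% of tested genes, and higher than each for 1 of 10, against 16.3%. Restricted to genes reaching 50 counts, these last shares were 21.1% and 18.2%. The differences of Gata2, Runx1, Meis1 and Spi1 are thus larger than counting error. The fit, with 1 KO library, did not show them to exceed the spread that it assigns to libraries of 1 group.

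**Figure D3:**
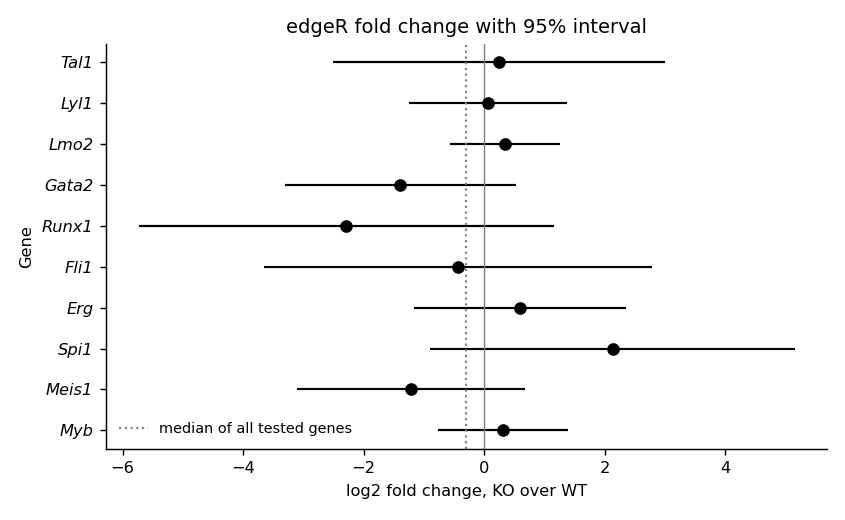
Fitted log2 fold change of KO over WT for each gene (edgeR), with its 95% interval from the quasi-likelihood fit. The solid line marks 0, which all 10 intervals include, and the dotted line marks the median of all tested genes, -0.31.

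Ratios of the counts of 2 genes within a library do not depend on how libraries are scaled, and the pairs given here were chosen after the values were seen. Spi1 had 1.21 counts per Gata2 count in KO (34 to 28, 95% interval 0.715 to 2.08), against 0.0328 in WT replicate 1 (4 to 122, 0.00879 to 0.0861) and 0.211 in WT replicate 2 (16 to 76, 0.115 to 0.364). The intervals of the 3 libraries do not overlap, so the WT libraries also differ from each other in this ratio. Per transcript length, on the deposited FPKM scale, the Spi1 to Gata2 ratio was 2.53 in KO, against 0.0731 and 0.438 in WT. Erg had 5.69 counts per Fli1 count in KO, against 4.75 and 2.15 in WT, so KO and WT replicate 1 were alike within their intervals. Lyl1 had 4.79 counts per Tal1 count in KO, against 2.65 and 38.8 in WT, so KO lay between the WT libraries.

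**Figure D4:**
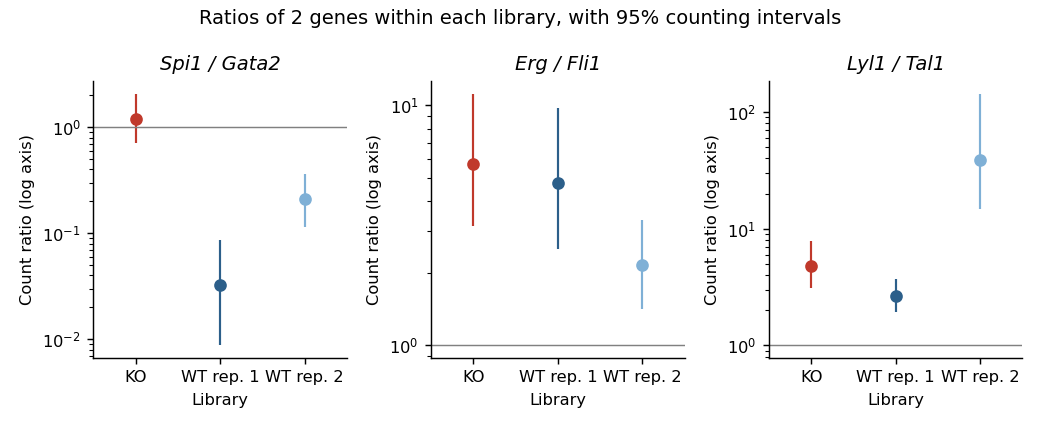
Ratio of the counts of 2 genes within each library (log axes, which differ between panels), for Spi1 over Gata2, Erg over Fli1 and Lyl1 over Tal1. Points are single libraries with exact 95% binomial intervals, and the Spi1 to Gata2 ratio is 1.21 in KO, against 0.0328 and 0.211 in WT.

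Levels of different genes can be set in order only per length, for which the deposited FPKM (a level scaled by depth and transcript length) was summed over a gene's transcripts. In all 3 libraries Lmo2 came first, then Lyl1, then Myb. Lmo2 had 677 FPKM in KO and 544 ± 201 FPKM in WT, Lyl1 245 in KO and 241 ± 38.2 in WT, and Myb 211 in KO and 173 ± 35.2 in WT (SD, n = 2 each). In WT the next in order were Gata2 at 91.2 ± 18.9, Meis1 at 83.2 ± 23.8 and Erg at 62.7 ± 18.2 FPKM, whose neighbours do not differ beyond their spread. The last 4 in WT, Fli1 at 21.9 ± 16.1, Spi1 at 20.9 ± 18.7, Tal1 at 18.8 ± 22.4 and Runx1 at 16.1 ± 7.34 FPKM, cannot be put in order either.

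In KO the order below Myb was another. Spi1, at 89.5 FPKM, came next after Myb, level with Erg at 89.1 FPKM. Gata2, at 35.4 FPKM, and Meis1, at 34.5 FPKM, followed. Tal1 had 22.0 FPKM, Fli1 15.7 FPKM, and Runx1 was last with 3.31 FPKM. Spi1 was the tenth in WT replicate 1, at 7.64 FPKM, and the seventh in WT replicate 2, at 34.1 FPKM.

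The proteins that work with these factors gave no call. Of 22 genes listed as partners 18 were tested, and 0 rose and 0 fell in edgeR (0 also at an unadjusted p under 0.05), with 9 positive and 9 negative log2 fold changes and a median of 0.04, beside -0.31 over all tested genes. Leaving out a WT library gives a plain difference of log2 CPM, not a fit. The partner median was then 0.34 without WT replicate 1 and 0.39 without WT replicate 2, beside -0.13 and -0.11 over all tested genes. Highest by total CPM, which is not scaled for length, were Ldb1, Cbfa2t3, Zfpm1 and Kmt2a. Ldb1 is a scaffold that binds Lmo2, and Cbfa2t3 is a corepressor of the Tal1 complex. Zfpm1 is the GATA cofactor FOG1, and Kmt2a is a histone methyltransferase. Ldb1 had 310 CPM in KO and 391 ± 99.6 CPM in WT, and Cbfa2t3 had 359 CPM in KO and 268 ± 35.4 CPM in WT (SD, n = 2 each). Zfpm1 had 227 CPM in KO and 288 ± 184 CPM in WT, and Kmt2a had 249 CPM in KO and 197 ± 17.0 CPM in WT. Partners chosen after their values were seen were Cbfb, with 26 counts in KO, against 48 and 24 in WT, and Hoxa9, a Meis1 partner, with 5, against 55 and 36. Hoxa9 lay below both WT libraries, as Meis1 did, and Pbx2, with 30 counts, against 5 and 5, lay above both.

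Of 19 related genes of the same families 9 were tested, and 0 passed in either direction in edgeR, with 0 higher and 2 lower at an unadjusted p under 0.05. Their median log2 fold change was -0.99, or -1.57 without WT replicate 1 and -0.01 without WT replicate 2. By total CPM, Etv6, Elf4, Mybl2 and Runx2 were the highest. Etv6, an ETS repressor, had 552 CPM in KO and 358 ± 80.0 CPM in WT, and Elf4, another ETS factor, had 234 CPM in KO and 227 ± 110 CPM in WT (SD, n = 2 each). Mybl2, the cell cycle relative of Myb, had 83.1 CPM in KO and 229 ± 194 CPM in WT, and Runx2, best known from bone, had 41.6 CPM in KO and 197 ± 47.8 CPM in WT. Gata1, the erythroid GATA factor, had 0 counts in KO, against 2 and 0 in WT. Tal2, Spib, Meis2 and Meis3 had 0 counts in every library. Ets2 and Gabpa, the pair lower at an unadjusted p, had 0 counts in KO, against 20 and 70 for Ets2 and 34 and 12 for Gabpa in WT. With KO taken at a floor of 3 counts, they were at least 11.9-fold and 5.78-fold below the mean CPM of the WT libraries. These bounds leave the spread between the WT libraries aside, and against the lower WT library alone they are smaller.

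Of 40 other transcription factors of blood development 24 were tested, and 0 passed in either direction in edgeR, with 3 higher and 3 lower at an unadjusted p under 0.05. Their median log2 fold change was -0.33 in the fit, beside -0.31 over all tested genes. Without WT replicate 1 and without WT replicate 2, as plain differences, it was -0.10 and 0.13, beside -0.13 and -0.11. Both lay above the fitted value, and their sign differed with the WT library left out. Named by total CPM were Myc, Nfe2, Ikzf1 and Stat5a. Nfe2, a factor of the megakaryocyte and erythroid lineages, had 759 CPM in KO and 148 ± 87.7 CPM in WT (SD, n = 2), from 201 counts in KO, against 76 and 28 in WT (log2 fold change 2.39, SE 0.71, adjusted p 0.12 in edgeR). Myc had 321 CPM in KO and 564 ± 191 CPM in WT, Ikzf1, a lymphoid zinc finger factor, 162 CPM in KO and 339 ± 269 CPM in WT, and Stat5a, a cytokine signal transducer, 400 CPM in KO and 159 ± 99.2 CPM in WT. Besides Nfe2, the genes higher at an unadjusted p under 0.05 were Irf8, with 126 counts in KO, against 1 and 37 in WT, and Zbtb16, with 40, against 0 and 2. The lower ones, Mecom, Mycn and Foxo1, had 0 counts in KO. Mecom, which encodes the stem cell regulator Evi1, had 31 and 21 counts in WT. With KO taken at 3 counts, it was at least 6.63-fold below the mean CPM of the WT libraries. Foxo1 had 30 and 12 counts in WT, while Mycn had 1 and 62, so its value rests on WT replicate 2. These were named for their p.

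Genes described as direct targets of 1 or more of the factors were 28, of which 23 were tested. In edgeR 0 rose and 0 fell, with 3 higher (Mpo, Elane and Nfe2) and 0 lower at an unadjusted p under 0.05, and the median log2 fold change was -0.21. It was -0.55 without WT replicate 1 and 0.27 without WT replicate 2, which turns its sign. Mpo, Laptm5, Elane and Kit were named by total CPM, where Kit, Cd34 and Csf3r were almost level. Mpo, the myeloperoxidase gene that Runx1 and Myb are known to drive, had 3748 CPM in KO and 1983 ± 98.3 CPM in WT (SD, n = 2; log2 fold change 0.96, SE 0.25, adjusted p 0.067 in edgeR). Elane, the neutrophil elastase gene, had 1031 CPM in KO and 429 ± 317 CPM in WT. Laptm5, a lysosomal membrane protein gene of blood cells, had 892 CPM in KO and 1064 ± 523 CPM in WT, and Kit had 555 CPM in KO and 577 ± 84.8 CPM in WT. This list shares Gfi1, Gfi1b, Hhex, Nfe2, Myc and Cebpa with the list of other factors, so the lists are not independent. Of the Spi1 targets, a pair chosen after their values were seen lay on opposite sides of WT: Itgam, the integrin CD11b, had 35 counts in KO, against 4 and 18 in WT, while Btk, a B cell and myeloid kinase, had 22, against 44 and 101.

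**Figure D5:**
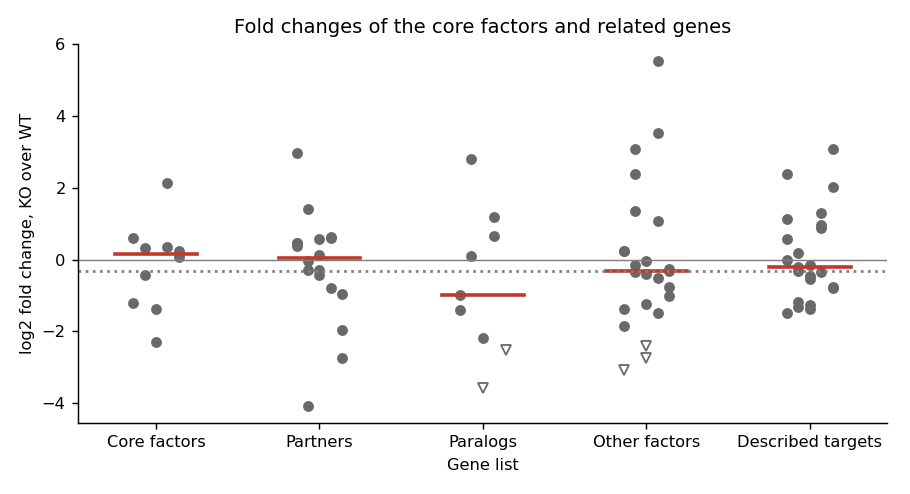
Log2 fold change of KO over WT for every tested gene of the 10 core factors, their partners, their family relatives (paralogs), other blood transcription factors and described targets. Each circle is a gene, and open triangles are genes with 0 KO counts, drawn at the bound that 3 KO counts allow against the WT mean. Red bars are medians and the dotted line is the median of all tested genes (-0.31).

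For 9 of the 10, the most alike gene was looked for among the 49 partners, relatives and other factors with at least 30 counts in all, by the root mean square difference of log2(CPM + 1) over 3 libraries after centring each gene on its mean. With 3 libraries a close match is easily found, and the matches are given as a description. Runx1 was nearest to its relative Runx2 (difference 0.25), Gata2 to Gfi1 (0.12) and Lmo2 to Tcf3 (0.13), an E protein. Fli1 was nearest to Zfpm1 (0.10), Erg to Ssbp4 (0.01), and Lyl1 and Myb both to Ikzf2 (0.09 and 0.07). The profiles of Spi1 and Tal1 had no close match, with differences of 0.81 to Pbx2 and 0.69 to Stat5b. Gfi1, a zinc finger repressor, had 30.2 CPM in KO, against 96.8 and 80.0 CPM in WT.

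Several of the 10 genes are also used by other cells that a bone marrow sort could hold, and markers of those cells were summed. Mast cells and basophils express Gata2, and their 8 markers, of which 6 were detected and Tpsb2 and Prss34 were at 0 in every library, summed to 52.9 CPM in KO, against 133 and 83.1 CPM in WT. Megakaryocytes express Gata2, Tal1, Fli1 and Meis1, and their 8 markers, 5 of them detected, summed to 846 CPM in KO, against 586 and 548 CPM in WT, with Ppbp, Gp1bb and Gp6 at 0 in every library. Erythroid markers, 7 of 11 detected in some library, summed to 918 CPM in KO, against 708 and 419 CPM in WT. Endothelial cells express Erg, Fli1, Tal1 and Gata2, and 4 of their 9 markers were detected, summing to 355 CPM in KO, against 404 and 551 CPM in WT. The defining endothelial genes Cdh5, Kdr and Emcn were at 0 in every library. Itga2b carried most of the megakaryocyte sum, with 196 counts in KO, against 156 and 127 in WT. Pf4 was also higher in KO, with 25, against 2 and 0, while Itgb3 had 1, against 50 and 35, and Gp9 had 0, against 3 and 5, so the markers of this list did not lie on the same side. The mast cell sum was lowest in KO, as Gata2 was, but it rested on 14 counts in KO, against 48 and 27 in WT. Of its markers, Cpa3 (4, against 20 and 11) and Fcer1a (0, against 9 and 3) were lower in KO than in both WT libraries. Ms4a2 (2, against 6 and 0), Mcpt8 (3, against 9 and 0) and Hdc (5, against 2 and 13) lay between them. Cma1 had 0, against 2 and 0. The part of these cells in the levels of the 10 genes was not tested.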

How the data were processed

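Per the labels' protocols, total RNA of freshly sorted cells was purified with an RNeasy micro kit and NEB kits served for library construction. Groups came from the sample titles, with 1 KO and 2 WT libraries. The deposited counts are whole reads per RefSeq transcript, and the authors deposited FPKM beside them. STAR and mm10 are named, per the submitters' processing notes. No counting tool, strand setting or FPKM tool is given in the sources read.

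Per library, 42574 transcript rows covered 24982 symbols. The gene count was the highest count over a symbol's rows, and CPM used the total of gene counts. FPKM was summed over a symbol's rows, because the intended choice, the row with the highest count, was tied in at least 1 library for every one of the 10 genes that has several rows. The main test was the quasi-likelihood F-test of edgeR 4.0.16 (R 4.3.3) after filterByExpr and TMM scaling, adjusted by Benjamini-Hochberg at 0.05, with 1 residual degree of freedom and a common biological coefficient of variation of 0.811. SE was the absolute log2 fold change over the square root of F. Intervals are 95% and, outside the fit, cover counting error only: no molecular identifiers are mentioned, so reads need not be separate molecules. Alternatives used DESeq2 1.42.0, limma 3.58.1 on log2(FPKM + 1) or log2(FPKM + 0.1), other scaling, filters and transcript summaries. Values without a WT library are differences of log2 CPM after TMM scaling and not fits.

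The 10 genes, lists and tests were chosen with earlier results of these data known. Named genes were the 10, and from each list the members past the threshold and the 4 with the highest total CPM. Others were chosen after their values were seen. Locations and promoter windows are from RefSeq on GRCm38.p6, and transcript starts and overlaps from GENCODE M21 on GRCm38. Marker lists not given in the text summed to 0 CPM in KO, against 13.8 and 58.5 CPM in WT, for B lineage cells, to 155 CPM, against 191 and 105, for T and NK cells, and to 30.2 CPM, against 0 and 0, for stroma. Some single-gene results are not reported here.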

Additional observations from a re-analysis of the deposited data

How the results depend on the processing

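None of the 10 genes passed the threshold under any of the 9 alternatives with a test, at adjusted p values from 0.43 to 1, and none changed direction there. Runx1 and Spi1 were not tested under the filter of 10 counts in every library or 50 in any. The log2 fold change ranged over -2.34 to -1.92 for Runx1, -1.46 to -1.32 for Gata2, -1.45 to -1.22 for Meis1, 2.08 to 2.46 for Spi1 and 0.16 to 1.10 for Tal1. Without WT replicate 1 and without WT replicate 2, which leave no test, it was -2.73 and -1.64 for Runx1, -1.09 and -1.64 for Gata2, -1.49 and -0.89 for Meis1, 1.43 and 3.52 for Spi1, 2.89 and -0.63 for Tal1, -0.08 and 0.22 for Lyl1, -1.03 and 0.59 for Fli1, 0.77 and 0.03 for Lmo2, 0.37 and 0.85 for Erg, and 0.13 and 0.53 for Myb. The number of the 10 that lay above both WT libraries was 4 with TMM or DESeq2 scaling, against 3 on library totals, because Lmo2 and WT replicate 1 are level.

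Over all genes, edgeR called 8 higher and 0 lower. It called 3 higher with upper-quartile scaling, 4 with no filter and 1 with the mean over transcripts. With their sum it called 0 higher, with 239 higher and 554 lower at an unadjusted p under 0.05. With 10 counts in every library or 50 in any it also called 0 higher, with 102 higher and 238 lower unadjusted. Limma called 0 higher with either pseudocount, and DESeq2 called 2 lower. At an unadjusted p under 0.05, limma had 587 higher and 507 lower with a pseudocount of 1. With 0.1 it had 582 higher and 955 lower. The cause of these moves was not tested. No paired analysis was possible because there is a single KO library and its label carries no replicate number. Depth limits Runx1, Fli1, Tal1 and Spi1 most, each with under 15 counts in some library.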
